A study of Rattus norvegicus with 30 samples.

Results

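Untreated stomach was compared with untreated jejunum in female DA rats, an inbred strain, at 10 weeks of age. The comparison took in all 31042 probe sets of the rat array that are not array controls, on 4 of the 30 arrays of the study: 2 of stomach and 2 of jejunum, all at 0 h. The 0 h rats received no irinotecan, a topoisomerase I inhibitor used against colorectal cancer; the sources used here do not say whether they had a sham injection or the halothane that dosed rats had. Each array carried RNA pooled from 3 rats, and 6 rats were killed at 0 h, so the stomach and jejunum pools came from the same 6 animals. The tissue was a piece of the whole wall, rinsed with saline, so mucosa, muscle, nerve, vessel and blood cells were all in the extract. Used beside these were the 2 untreated colon arrays of the same rats and the 16 stomach and jejunum arrays of rats killed 1, 6, 24 or 72 h after an intraperitoneal dose of 200 mg/kg irinotecan. Samples of a group are separate pools. The p-values below rest on the spread between such pools, which limma moderates with the spread of all other probe sets. The fit did not take into account that both tissues came from the same 6 rats.

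The stomach secretes acid through the proton pump of parietal cells, stores pepsinogens in chief cells and covers itself with mucus, trefoil peptides and gastrokines from its surface and neck cells. The rodent stomach also has a forestomach lined by keratinised squamous epithelium. The jejunum absorbs: its columnar enterocytes carry a brush border of microvilli with the enzymes that finish the digestion of sugars and peptides, the transporters that take the products up, and the machinery that packs dietary fat into chylomicrons.

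All values are log2 signals, so a difference of 1 is a 2-fold difference, and differences are between tissues for the same probe set. The medians of the 4 arrays lay between 7.01 and 7.03 and single values ran from 3.57 to 14.26. Signals near the bottom of this range may be background, since no detection calls were used, and a fold change against such a signal may understate the true one. The replicates correlated at 0.9886 in the stomach and 0.9947 in the jejunum, and the 2 tissue means at 0.878. The small number of arrays limits the precision of each difference. In bulk tissue, fewer cells of a type and less RNA per cell cannot be told apart.

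The label of each tissue was checked against its markers, and these were on the side of the label. Atp4a, the catalytic subunit of the gastric proton pump, lay at 13.02 and 12.92 in the stomach and at 6.91 and 7.03 in the jejunum. Pgc, a pepsinogen, lay at 14.16 and 14.18 against 6.90 and 7.09, and Gkn1, a secreted gastrokine of surface mucous cells, at 14.09 and 14.13 against 6.10 and 6.03. Apoa4, an apolipoprotein of chylomicrons, lay at 13.74 and 13.79 in the jejunum and at 6.81 and 6.66 in the stomach. The groups of these 4 genes did not overlap and lay 63.8- to 263-fold apart.

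The 2 stomach pools differed from each other. Between the stomach replicates 106 probe sets differed by more than 2-fold, 104 of them higher in replicate 2, against 4 between the jejunum replicates. The genes higher in stomach replicate 2 included keratins and other genes of squamous epithelium, which are described below. With 2 pools it cannot be told which of them is the unusual one. Some of the results that rest on replicate 2 are given with and without it. In a small way the untreated colon arrays also differed: of the genes called at least 4-fold higher in jejunum than in stomach, 14 were higher by over 1 in colon replicate 2 and 1 in colon replicate 1, and of those at least 4-fold higher in stomach 4 were higher by over 1 in colon replicate 1 and 0 in colon replicate 2. The 3' minus 5' signal of the GAPDH control probe sets, a measure of RNA integrity, was 0.01 and -0.06 in the stomach pools and 0.16 and 0.15 in the jejunum pools. The same measure for actin was 1.24 and 0.96 in stomach and 0.86 and 1.06 in jejunum, where the tissues overlapped. The part of RNA integrity in the results was not tested.

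Of the 31042 probe sets 12186 (39.3%) passed an adjusted p of 0.05 in limma's moderated test with Benjamini-Hochberg adjustment, 6460 higher in stomach (20.8%) and 5726 higher in jejunum (18.4%). Without jejunum replicate 2 the count was 7940. Among the called probe sets 1450 were at least 2-fold higher in stomach and 1188 in jejunum, 309 and 409 at least 4-fold, 40 and 101 at least 16-fold, and 11 and 23 at least 64-fold. The arrays of the tissues did not overlap for 22716 probe sets (73.2%), so a lack of overlap by itself set few probe sets apart. With each gene represented by its brightest probe set, 6694 of 14217 named genes (47.1%) were called, 3768 (26.5%) higher in stomach and 2926 (20.6%) higher in jejunum, and 228 (1.6%) and 311 (2.19%) were called and at least 4-fold higher. The median difference over all named genes was 0.0043. These shares are the background for the counts of each gene group below.

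**Figure D1:**
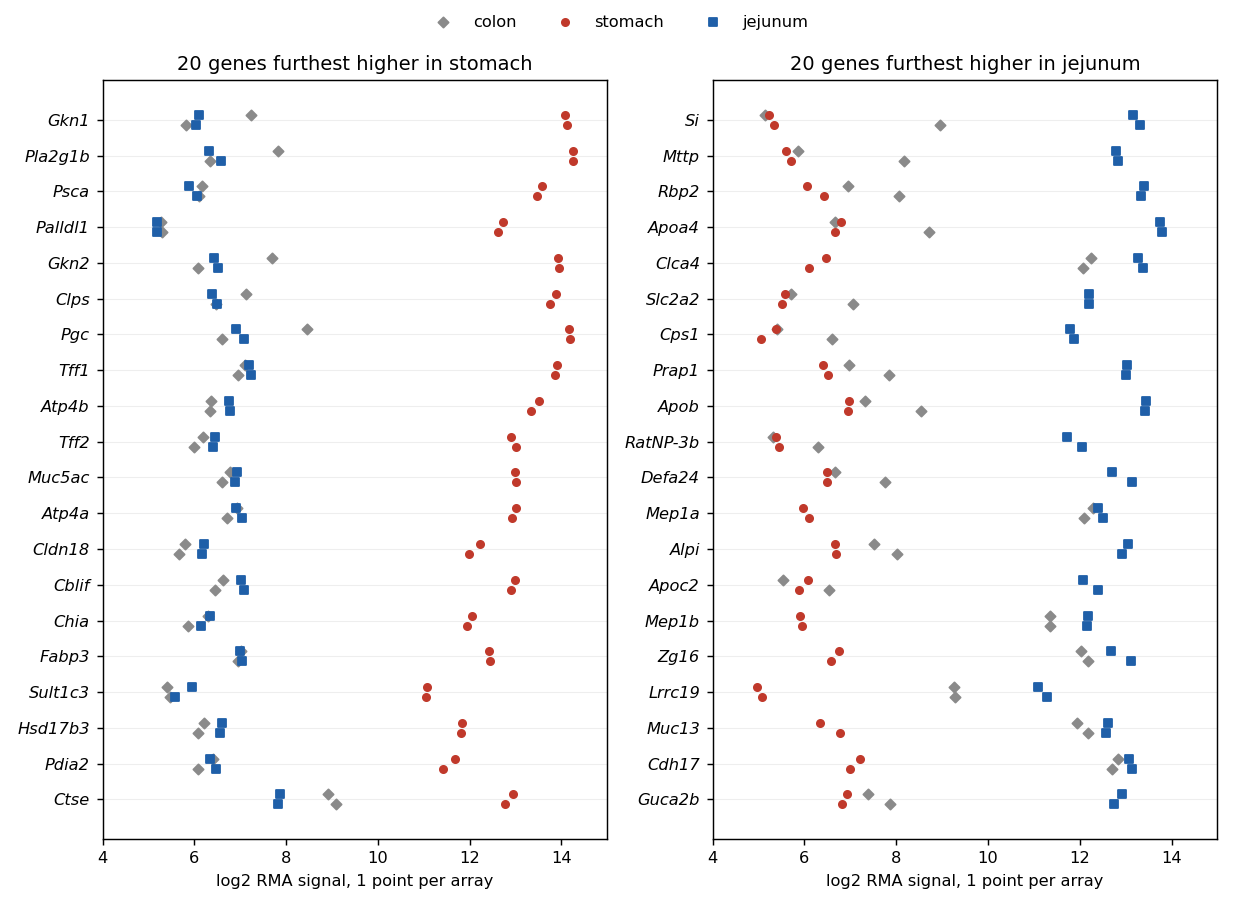
Log2 RMA signal (x axis) of the 20 genes furthest higher in stomach (left) and the 20 furthest higher in jejunum (right), 1 point per untreated array: red circles stomach, blue squares jejunum, grey diamonds colon. In each of the 40 genes the stomach and jejunum points lie at least 4 units apart, while the colon points lie near the jejunum for Mep1a and Cdh17 and apart from each other for Si, at 5.14 and 8.96.

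Among the 20 genes furthest higher in stomach were secreted products, surface and junction proteins, the proton pump and enzymes. Gkn1 was higher in stomach by 8.04 ± 0.086 (SE, n = 2 and 2; 263-fold; adjusted p = 2.77e-09) and its relative Gkn2 by 7.46 ± 0.085 (176-fold), with Gkn2 at 13.93 and 13.94 in stomach and 6.44 and 6.52 in jejunum. Tff1 and Tff2, trefoil peptides that are secreted with gastric mucus, differed by 6.66 and 6.52. Muc5ac, the gel-forming mucin of the gastric surface, lay at 12.98 and 13.01 in stomach and at 6.94 and 6.88 in jejunum, 67.7-fold apart. Psca, a surface protein anchored in the membrane by a lipid, differed by 7.55, from 13.58 and 13.46 in stomach to 5.88 and 6.06 in jejunum. The jejunum signals of these mucous cell genes all lay between 5.88 and 7.24, close to or below the array median.

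Of the 9 genes measured on the gastric mucous list 8 were higher in stomach, with a list median of 6.52, and 1, Galnt6, was higher in jejunum. Galnt6, which starts the sugar chains of mucins, lay at 8.54 and 8.24 in stomach and 10.68 and 10.63 in jejunum. Cldn18, the claudin of gastric tight junctions, was higher in stomach by 5.91 with one probe set and by 4.98 with its brightest, and Aqp5, a water channel, by 0.44.

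Genes of the parietal cell list formed the next group: 12 of the 15 measured were higher in stomach, 2 higher in jejunum and 1 did not pass, with a median of 2.41. Atp4a differed by 6.00 ± 0.092 (63.8-fold) and its partner subunit Atp4b by 6.65 ± 0.095 (100-fold). Cblif, the intrinsic factor that carries vitamin B12, was placed on this list, but the cell that makes it in the rat was not examined here. It lay at 12.99 and 12.90 in stomach and at 7.03 and 7.07 in jejunum. The potassium channels that recycle the ion at the secreting membrane were also higher in stomach: Kcnj15 by 4.51, Kcnj16 by 3.30, Kcne2 by 2.41 and Kcnq1 by 2.35. Esrrg, a nuclear receptor of parietal cells, differed by 3.37, and Car2, a carbonic anhydrase that supplies protons, by 3.00. The receptors on the list differed less, Cckbr, the gastrin receptor, by 0.63, while Hrh2, the histamine receptor, lay at 5.86 and 5.96 against 6.01 and 6.03 (adjusted p = 0.332). Dnase1, a secreted nuclease placed on this list, went the other way, at 6.98 and 6.90 in stomach and 12.74 and 12.82 in jejunum. Ckb, which supplies ATP from creatine phosphate, was higher in jejunum by 0.33, and this call was lost without stomach replicate 2 or jejunum replicate 1.

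Of 10 chief cell and gastric enzyme genes 9 were higher in stomach, 0 higher in jejunum and 1 did not pass, with a median of 2.70. Pgc differed by 7.17 ± 0.096 (144-fold), and Pga5, another pepsinogen, by 3.08, with 9.44 and 9.23 in stomach and 6.27 and 6.22 in jejunum. Chia, an acid chitinase, differed by 5.75 and Ctse, an intracellular aspartic protease, by 5.02. Cym, the milk-clotting chymosin, differed between the stomach pools, at 10.06 in replicate 1 and 8.01 in replicate 2, against 6.05 and 5.87 in jejunum. Both Cym values in stomach lay above the jejunum values, and the difference was 3.08 ± 0.523 (adjusted p = 0.00215). Bhlha15, the transcription factor of mature secretory cells, and Rab3d, a small GTPase of secretory granules, were higher in stomach by 1.82 and 2.33. Lipf, gastric lipase, did not pass, at 6.52 and 6.39 in stomach and 6.40 and 6.47 in jejunum.

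The promoters of some of the genes with the largest differences are shown because these genes moved together by tissue. Each line gives the 250 bases before the annotated start in RefSeq, build GRCr8, on the strand of the gene, for the gut enzymes Si and Alpi, the urea cycle enzyme Cps1, and the gastric genes Gkn1 and Atp4a. Capitals mark matches on either strand to short motifs of gut factors: GTTAAT, a part of the site of HNF1, CAAAGTC, a part of the site of HNF4, TTTATG for CDX factors and AGATAA for GATA factors, of which no motif contains another.
Si, chr2:159884903-159885152, minus strand: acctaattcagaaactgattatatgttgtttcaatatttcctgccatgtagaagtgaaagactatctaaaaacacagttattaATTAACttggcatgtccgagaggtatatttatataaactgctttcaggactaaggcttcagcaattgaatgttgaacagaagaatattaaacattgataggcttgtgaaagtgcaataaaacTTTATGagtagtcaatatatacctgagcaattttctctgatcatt
Alpi, chr9:95224781-95225030, minus strand: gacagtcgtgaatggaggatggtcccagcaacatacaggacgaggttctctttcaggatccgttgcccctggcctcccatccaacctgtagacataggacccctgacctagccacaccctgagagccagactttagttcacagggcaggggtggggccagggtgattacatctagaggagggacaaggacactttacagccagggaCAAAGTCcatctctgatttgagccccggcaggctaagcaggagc
Cps1, chr9:76063613-76063862, plus strand: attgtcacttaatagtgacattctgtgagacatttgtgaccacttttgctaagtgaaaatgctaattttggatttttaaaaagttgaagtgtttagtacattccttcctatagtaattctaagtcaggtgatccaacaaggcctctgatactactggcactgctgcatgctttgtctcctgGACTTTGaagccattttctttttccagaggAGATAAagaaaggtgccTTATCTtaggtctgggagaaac
Gkn1, chr4:121352706-121352955, minus strand: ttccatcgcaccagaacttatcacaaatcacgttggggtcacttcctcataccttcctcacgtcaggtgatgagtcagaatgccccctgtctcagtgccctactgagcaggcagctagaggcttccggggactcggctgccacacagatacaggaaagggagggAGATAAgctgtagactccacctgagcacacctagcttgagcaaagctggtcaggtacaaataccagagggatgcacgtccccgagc
Atp4a, chr1:95088872-95089121, plus strand: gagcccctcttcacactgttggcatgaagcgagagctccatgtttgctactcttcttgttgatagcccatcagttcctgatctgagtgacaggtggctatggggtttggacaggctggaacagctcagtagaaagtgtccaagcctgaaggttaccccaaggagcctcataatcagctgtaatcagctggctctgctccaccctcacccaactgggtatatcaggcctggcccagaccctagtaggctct

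In the Si window the HNF1 motif began 167 bases and the CDX motif 45 bases before the start, in Alpi the HNF4 motif 44 bases before it, and in Gkn1 the GATA motif 86 bases before it. The Atp4a window held none of the 4 motifs. Among jejunal genes with larger differences than Alpi, the windows of Apoa4, Clca4 and Slc2a2, not printed, also held none. Those of Rbp2, Prap1, RatNP-3b and Mep1a held matches. Of the 311 genes at least 4-fold higher in jejunum 259 had a window, and 9.65% of these held the HNF1 motif, against 2.79% of the 179 windows of stomach genes, 4.32% of 11700 windows of measured genes and 6.46% of all 27457 windows. The HNF4 motif was in 9.65% of jejunum and 4.47% of stomach windows, against 3.19% of those of measured genes and 3.95% of all windows. The CDX motif was in 11.2% and 5.59%, against 6.56% of measured genes' windows and 11.2% of all windows, so that the jejunum share did not exceed the share over all windows. The GATA motif was in 11.2% and 11.7%, against 6.62% and 10.0%. Any of the 4 motifs was in 34.4% of jejunum and 21.8% of stomach windows, against 18.4% of those of measured genes and 27.0% of all windows. These shares describe letters in a window and were not tested.

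In the jejunum the largest differences were in the enzymes and carriers of enterocytes. Si, sucrase-isomaltase, lay at 13.16 and 13.32 in jejunum and at 5.22 and 5.33 in stomach, a difference of 7.96 ± 0.096 (250-fold; adjusted p = 2.77e-09). All 15 measured brush border enzymes were higher in jejunum, each by at least 4-fold, with a median of 4.73. Among the peptidases, both meprins differed widely, Mep1a by 6.40 and Mep1b by 6.25, and Ace, Enpep, Anpep and Dpp4 by 5.09, 4.73, 3.68 and 3.43. Alpi, intestinal alkaline phosphatase, lay at 13.04 and 12.91 in jejunum and at 6.66 and 6.68 in stomach. Treh, which splits trehalose, differed by 2.94 and Ggt1, which starts the breakdown of glutathione, by 2.72, the smallest difference on the list.

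The brush border itself followed, with 13 of 15 structural genes higher in jejunum, 0 higher in stomach and 2 that did not pass (median 3.43). Cdh17, the liver-intestine cadherin, differed by 6.00, and Cdhr5 and Cdhr2, the cadherins that link microvilli to each other, by 5.14 and 4.32. Vil1, which bundles actin in microvilli, lay at 12.74 and 12.76 in jejunum and at 7.72 and 7.84 in stomach. Myo7b, Ush1c and Anks4b, partners of the microvillar cadherins, differed by 4.04, 3.59 and 3.43. Ezr, which ties actin to the membrane in many epithelia, did not pass, at 11.99 and 11.84 in stomach and 11.88 and 11.89 in jejunum.

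Of 17 sugar, peptide and amino acid transporters 16 were higher in jejunum and 1, Slc29a1, did not pass (median 3.02). Slc2a2, a glucose carrier of the basolateral membrane, lay at 12.20 and 12.19 in jejunum and at 5.58 and 5.51 in stomach, 101-fold apart. Slc5a1, the sodium-glucose cotransporter, differed by 3.33 and Slc2a5, the fructose carrier, by 3.02. The peptide carrier Slc15a1 differed by 5.45, and Slc7a9, the light chain of the carrier for cystine and basic amino acids, by 5.42, while its heavy chain Slc3a1 differed by 3.55. In contrast the heavy chain Slc3a2, which many cell types express, differed by 0.72.

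For minerals and vitamins 21 of 25 genes were higher in jejunum, 0 in stomach and 4 did not pass (median 2.55). Rbp2, the retinol-binding protein of enterocytes, lay at 13.40 and 13.34 in jejunum and 6.06 and 6.43 in stomach, a difference of 7.13. Bco1, which cleaves carotene, and Cubn, part of the receptor for intrinsic factor with vitamin B12, differed by 4.95 and 4.69, so that Cblif and its receptor were highest in opposite tissues of this pair. In iron handling, Heph, the ferroxidase, differed by 4.37 and Slc40a1, the exporter, by 0.71. The vitamin C carrier Slc23a1, the folate carrier Slc46a1 and the zinc carrier Slc39a4 differed by 2.64, 2.46 and 3.11. Trpv6, a calcium channel, did not pass, at 7.49 and 7.54 in stomach against 7.40 and 7.41, and Cybrd1, an iron reductase, did not pass either.

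Lipid absorption was among the strongest groups: 22 of 25 genes were higher in jejunum, 2 in stomach and 1 did not pass (median 2.76). Mttp, which loads lipid on apolipoprotein B, lay at 12.78 and 12.82 in jejunum and 5.61 and 5.71 in stomach, 142-fold apart. Apob differed by 6.48 with its brightest probe set and by less with another, and Apoa4, Apoc2, Apoa1 and Apoc3 by 7.03, 6.27, 5.64 and 5.61. Fabp1, a fatty acid-binding protein, differed by 5.80, and Fabp2, its intestinal relative, by 1.63, at 13.49 and 13.52 in jejunum and 11.83 and 11.91 in stomach. The esterifying enzymes Mogat2, Dgat1 and Dgat2 differed by 3.91, 3.23 and 2.55. Apoe was higher in stomach by 1.55 ± 0.423 (adjusted p = 0.0207), with stomach pools at 8.68 and 10.32. The difference was 0.73 without stomach replicate 2 and 2.37 without replicate 1, and the call was lost when either jejunum array was left out.

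The other exception was Clps, the colipase that pancreatic lipase needs, at 13.87 and 13.75 in stomach and 6.39 and 6.50 in jejunum (165-fold). Pla2g1b, a secreted phospholipase also known from the pancreas, lay at 14.25 and 14.26 in stomach and 6.31 and 6.57 in jejunum (225-fold). Other genes of the pancreas were mixed at 0 h. Of the 20 measured acinar genes 8 were higher in stomach, 1 in jejunum and 11 did not pass, with a median of 0.17. Over all named genes 26.5% were higher in stomach. Prss1, Prss2, Cpb1, Pnlip and Ctrc lay between 5.39 and 7.13 in all 4 arrays and did not pass. In contrast Ptf1a, a transcription factor of the pancreas, was higher in stomach by 2.38, with means of 8.92 and 6.54. Pnliprp1, a relative of pancreatic lipase, lay at 8.14 and 7.14 in stomach and 6.11 and 5.65 in jejunum. The serine proteases Cela3b and Cela1 differed by 3.19 and 1.42, with Cela3b at 9.83 and 10.13 in stomach and 6.79 and 6.77 in jejunum. Pdia2, a protein folding enzyme of secretory cells, differed by 5.14. Amy2a3, an amylase, was higher in jejunum by 0.78.

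**Figure D2:**
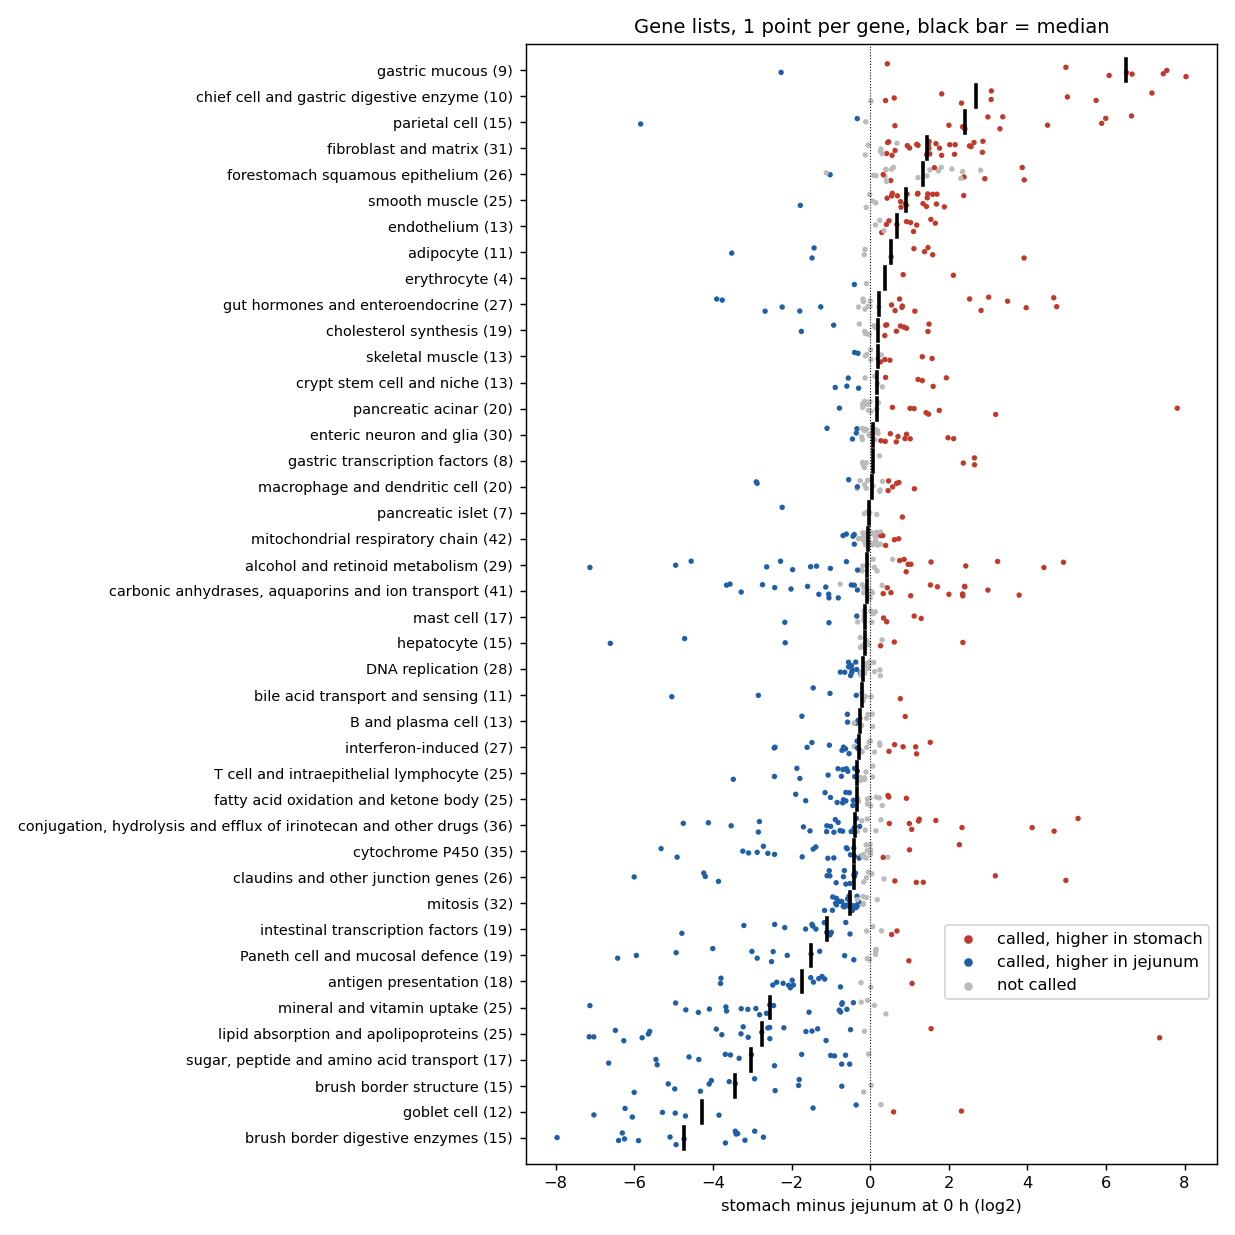
Difference between stomach and jejunum at 0 h (log2, x axis, stomach higher to the right) for each measured gene of 42 lists (rows, number of measured genes in brackets), with red points called higher in stomach, blue points called higher in jejunum and grey points not called, and a black bar at the list median. Medians run from 6.52 in the gastric mucous list to -4.73 in the brush border enzymes, and 18 lists lie past 0.5 on either side.

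Bile acid genes were mixed, with 5 of 11 higher in jejunum, 1 in stomach and 5 that did not pass. Slc51a, a subunit of the basolateral bile acid exporter, differed by 5.05, and Nr1h4, the bile acid receptor, by 1.02. Slc10a2 and Fabp6, the ileal carrier and binding protein, lay at or below 6.21 in all 4 arrays. Slc10a2 did not pass, and the call of Fabp6, higher in jejunum by 0.35, was lost without either jejunum array. Nr0b2, a target of that receptor, was higher in stomach by 0.77.

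Goblet and Paneth cell genes lay on the side of the jejunum. Of 12 goblet cell genes 9 were higher in jejunum and 2 in stomach (median 4.27). Clca4 differed by 7.03, the lectin Zg16 by 6.24, the membrane mucin Muc13 by 6.05, the gel-forming mucin Muc2 by 5.28, and Tff3, the intestinal trefoil peptide, by 4.70. The stomach and jejunum thus carried different mucins and different trefoil peptides, with Muc2 at 7.18 and 6.94 in stomach and 12.36 and 12.33 in jejunum. The goblet cell genes higher in stomach were Agr2, a folding enzyme for mucins, by 0.60, and Sytl2, a factor of granule transport, by 2.32, and Spdef, a transcription factor, did not pass.

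Of 19 Paneth cell and mucosal defence genes 13 were higher in jejunum, 1 in stomach and 5 did not pass (median 1.50). Defa24, a defensin, lay at 12.70 and 13.13 in jejunum and 6.49 and 6.50 in stomach, and the defensin RatNP-3b differed by 6.47. Reg3b, a lectin that binds bacteria, lay at 11.59 and 12.32 in jejunum and 7.53 and 8.38 in stomach. Its relative Reg3g differed by 3.01, Lyz2, a lysozyme, by 2.87, and Pla2g2a, a bactericidal phospholipase, by 2.47. Guca2b and Guca2a, the ligands uroguanylin and guanylin, differed by 5.95 and 4.94. Pigr, which carries antibodies across epithelia, did not pass, at 12.61 and 12.39 in stomach and 12.40 and 12.29 in jejunum. Duox2, an oxidase, was higher in stomach by 0.99, by 0.42 without stomach replicate 2 and by 1.55 without replicate 1, and it was not called without either jejunum array.

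The endocrine genes divided between the tissues, with 13 of 27 higher in stomach, 6 higher in jejunum and 8 that did not pass. Ghrl, the hunger hormone ghrelin, lay at 13.06 and 13.12 in stomach and 8.54 and 8.14 in jejunum. Hdc, which makes histamine, differed by 4.67, and Slc18a2, which loads it into vesicles, by 2.82, while Sst, somatostatin, differed by 3.02. Chga, a granule protein of endocrine cells, lay at 12.02 and 12.13 in stomach and 8.69 and 8.47 in jejunum. Gast, gastrin, differed between the stomach pools, at 9.75 in replicate 1 and 11.68 in replicate 2, with jejunum at 6.70 and 6.78. Both pools lay above the jejunum, and the difference was 3.97 ± 0.492. In the jejunum the incretin Gip lay at 10.29 and 10.40 against 6.41 and 6.47 in stomach, and Nts, Gcg, Cck and Sct were higher by 3.76, 2.24, 1.79 and 1.26. The endocrine transcription factors Neurog3, Neurod1, Pax4, Pax6 and Nkx2-2 did not pass and differed by at most 0.17.

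Transcription factors showed smaller differences than the genes of digestion. Of 19 intestinal factors 14 were higher in jejunum and 2 in stomach (median 1.10). Cdx2, the homeobox factor of intestinal identity, lay at 10.23 and 10.18 in jejunum and 6.94 and 7.05 in stomach. Creb3l3, a membrane-bound factor of enterocytes and liver, differed by 4.79, Hnf4a by 1.64, Cdx1 by 1.10 and Vdr, the vitamin D receptor, by 1.46. Gata4 was higher in stomach by 0.55 and Pparg by 0.68, and the Gata4 call was lost without jejunum replicate 2. Without stomach replicate 1 the Gata4 difference was 0.33. Klf4 and Elf3 did not pass. Of 8 gastric factors 3 were higher in stomach and 5 did not pass: Foxa2 differed by 2.66, Foxq1 by 2.65 and Barx1 by 2.37, with Barx1 at 8.59 and 8.99 against 6.49 and 6.35. Sox2, a foregut factor, did not pass, at 8.12 and 8.45 in stomach and 7.96 and 8.13 in jejunum.

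Ion and water transport also differed by member and not by family: of 41 genes 13 were higher in stomach, 15 in jejunum and 13 did not pass. Higher in stomach were Fxyd3, a regulator of the sodium pump, by 3.79, Car9 by 2.36, Slc9a4, the sodium-proton exchanger of parietal cells, by 2.40, and Aqp4, a water channel, by 2.00. Higher in jejunum were the chloride-bicarbonate exchangers Slc26a3 and Slc26a6 by 3.65 and 3.28, Aqp7 by 3.56, Car4 by 2.74, Cftr, the chloride channel, by 2.43 and Slc9a3, the absorptive sodium-proton exchanger, by 2.01. Among the junction genes Cldn18 and Cldn8 were higher in stomach, Cldn8 by 3.19, and Cldn7, Cldn4 and Cldn3 higher in jejunum by 4.23, 4.19 and 3.86. Of 26 such genes 16 were higher in jejunum and 5 in stomach. The general epithelial members Epcam and Cdh1 differed by less than these claudins, by 1.10 and 0.40. Among the fits that left out an array, the call of Cdh1 was kept only without stomach replicate 1. Without stomach replicate 2 the Cdh1 difference was 0.25.

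Drug handling was examined because the study's drug is activated by carboxylesterases, glucuronidated and pumped out of cells. Of 36 such genes 20 were higher in jejunum, 10 in stomach and 6 did not pass. The efflux pumps Abcb1a and Abcg2 lay on the jejunum's side: Abcb1a was at 10.62 and 11.10 in jejunum and 6.27 and 5.95 in stomach (adjusted p = 3.14e-07), and Abcg2 at 10.78 and 10.95 against 6.61 and 6.88. Abcc2, another pump, differed by 2.84. In the other direction the pumps Abcc1, Abcc4 and Abcc5 were higher in stomach by 1.00, 1.23 and 1.25. Of the carboxylesterases, Ces1e was higher in jejunum by 3.54 and Ces2c by 0.89, and Ces1d was higher in stomach by 1.06. Top1, the target of the drug, was slightly higher in jejunum, at 10.04 and 9.95 against 9.66 and 9.63. The call of Top1 was lost without jejunum replicate 1 and that of Ces2c without jejunum replicate 2. Without stomach replicate 1 the Ces2c difference was 0.57. The sulfotransferases Sult1c3 and Sult1c2 and the glutathione transferase Gsta1 were higher in stomach by 5.29, 4.68 and 4.12, with Gsta1 at 11.42 and 11.31 against 7.30 and 7.19. The closely related members of these families may share probe targets, so a value may hold signal of a relative.

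Of the 35 cytochrome P450 genes measured on their list 19 were higher in jejunum, 3 in stomach and 13 did not pass. Cyp4f1 differed by 5.32, Cyp3a18 by 4.91, and Cyp3a9, at 12.85 and 12.92 in jejunum and 10.06 and 10.84 in stomach, by 2.43. Cyp1a1, which dietary ligands induce, differed by 3.24 ± 0.297, with jejunum pools at 10.83 and 9.69. In stomach Cyp2c23 was higher by 2.27, Cyp2s1 by 1.00 and Cyp4v3 by 0.33, the last not called without stomach replicate 1 or jejunum replicate 2. The liver P450s Cyp2c11, Cyp2e1 and Cyp3a2 did not pass.

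Alcohol and retinoid genes divided by enzyme. Higher in stomach were Adh7, the gastric alcohol dehydrogenase, by 4.92, Aldh3a1 by 4.42, Crabp2, which binds retinoic acid, by 3.24 and Aldh1a1 by 2.43, with Adh7 at 9.96 and 9.96 against 5.07 and 5.01. Higher in jejunum were Aldh1b1 by 4.55, Rdh7 by 2.63 and Lrat, which esterifies retinol, by 1.36. Of 29 genes 10 were higher in stomach, 11 in jejunum and 8 did not pass. Among other genes, Fabp3, a fatty acid-binding protein, Hsd17b3, an enzyme that makes testosterone, and Palldl1 were on the stomach's side by 5.41, 5.24 and 7.49. Cps1 and Otc, enzymes of the urea cycle that the small intestine uses to make citrulline, were on the jejunum's by 6.61 and 4.72, as was Fga, a fibrinogen chain, by 2.16. Of the 15 hepatocyte genes these 3 were higher in jejunum, 3 were higher in stomach and 9 did not pass: Alb, albumin, lay at 7.00 and 7.29 in stomach and 6.75 and 6.94 in jejunum and was one of those that did not pass.

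Prap1, a secreted acidic protein, and Lrrc19, a leucine-rich repeat protein, were also among the genes furthest higher in jejunum, by 6.57 and 6.17.

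Of 42 respiratory chain genes 5 were higher in each tissue and 32 did not pass, a share of calls below that over all genes. Of 25 genes of fatty acid oxidation 12 were higher in jejunum, 3 in stomach and 10 did not pass, with Ehhadh, a peroxisomal enzyme, furthest apart at 1.89. Of 19 cholesterol synthesis genes 9 were higher in stomach, 2 in jejunum and 8 did not pass: Idi1 by 1.50, Sqle by 1.47 and Cyp51 by 0.93 in stomach, and Stard4, a sterol carrier, by 1.75 in jejunum.

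Genes of dividing cells were higher in jejunum by small amounts: 25 of 32 mitosis genes were called higher there, 0 higher in stomach and 7 did not pass (median 0.52), and 17 of the calls were made again whichever of the 4 arrays was left out. Mki67, a marker of cycling cells, lay at 9.48 and 9.26 in jejunum and 8.30 and 8.12 in stomach, Ccna2 differed by 0.95 and Top2a, a topoisomerase of dividing cells, by 0.88. Of 28 DNA replication genes 11 were higher in jejunum and 17 did not pass, with 7 called without jejunum replicate 1. Of 13 stem cell and niche genes 5 were higher in stomach and 4 in jejunum, with Lgr5 higher in jejunum by 0.59 and Lrig1, Znrf3 and Fgfbp1 higher in stomach by 1.33, 1.60 and 1.94.

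The wall of the stomach pools carried more connective tissue and muscle signal. Of 31 fibroblast and matrix genes 25 were higher in stomach, 0 in jejunum and 6 did not pass (median 1.44). Dcn, the proteoglycan decorin, lay at 13.43 and 13.51 in stomach and 10.41 and 10.80 in jejunum, and the collagens Col1a1 and Col3a1 differed by 2.64 and 2.15. Without stomach replicate 2, which had the higher signal for most of them, the count was again 25 and the median 1.11. Of 25 smooth muscle genes 20 were higher in stomach, 1 in jejunum and 4 did not pass (median 0.92): Cnn1 and Des, a regulator and a filament of the contractile cell, differed by 2.38 and 1.89, and Actg2, enteric actin, by 1.45. Without stomach replicate 2 the smooth muscle median was 0.81 with 19 called. Of 13 endothelial genes 10 were higher in stomach and 0 in jejunum (median 0.68), with Plvap at 9.83 and 9.76 against 8.26 and 8.23. Among neural genes the peptides Cartpt and Grp were higher in stomach by 2.13 and 1.98 and galanin, Gal, higher in jejunum by 1.10. Of these 30 genes 10 were higher in stomach, 4 in jejunum and 16 did not pass, against 26.5% and 20.6% called over all named genes.

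Fat cell genes were divided: 6 of 11 were called higher in stomach, 3 in jejunum and 2 did not pass (median 0.53). In each tissue 1 of them was at least 4-fold higher, in stomach Lpl, lipoprotein lipase, by 3.92. Fabp4 and Adipoq were higher in stomach by 1.59 and 1.11. Adipoq lay at 8.28 and 7.92 in stomach and 6.91 and 7.06 in jejunum. Hbb, a globin of red cells, lay at 10.50 and 11.18 in stomach against 8.75 and 8.69. Of the 4 red cell genes 2 were higher in stomach and 1 in jejunum. For genes of tissues that adjoin the gut, 1 of 7 islet genes was higher in each tissue, and 5 of 13 skeletal muscle genes were higher in stomach and 2 in jejunum. The islet gene higher in jejunum was Gcg, given above among the endocrine genes. The part of fat, blood or adjoining tissue in the other differences was not tested.

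Of 18 antigen presentation genes 15 were higher in jejunum, 1 in stomach and 2 did not pass (median 1.73). The immunoproteasome subunits Psmb9 and Psmb8 differed by 3.81 and 3.80, with Psmb8 at 11.06 and 10.92 in jejunum and 7.09 and 7.30 in stomach. The class II genes RT1-Bb, RT1-Da and RT1-Ba and their invariant chain Cd74 differed by 2.48, 2.07, 2.03 and 2.21, and Tap2 and B2m, of the class I pathway, by 1.98 and 1.15. Interferon-induced genes as a list were less one-sided, with 12 of 27 higher in jejunum, 6 in stomach and 9 that did not pass.

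Of 25 T cell and intraepithelial lymphocyte genes 13 were higher in jejunum, 0 in stomach and 12 did not pass. Gzma and Gzmb, granzymes of cytotoxic cells, lay furthest apart, Gzma at 9.25 and 9.84 in jejunum and 6.20 and 5.92 in stomach and Gzmb by a difference of 2.43. The chemokine Ccl5 and the receptor chain Cd3g differed by 1.86 and 1.79, while Cd3e, Cd3d, Cd4 and Itgae did not pass. Jchain, which joins secreted antibodies, differed by 1.74. Macrophage genes were mixed: Ctss, a protease of antigen-presenting cells, was higher in jejunum by 2.90 and Mrc1, Cd163 and Csf1r were higher in stomach by 1.13, 0.67 and 0.57, with the call of Csf1r lost without jejunum replicate 1. Mast cell proteases also divided, Mcpt9 higher in jejunum by 2.17 and Cma1 higher in stomach by 1.12. Over the lists, 6 of 20 macrophage and dendritic cell genes were higher in stomach and 4 in jejunum. For mast cell genes it was 4 and 3 of 17, and for B and plasma cell genes 1 and 5 of 13. Over all named genes 26.5% were higher in stomach and 20.6% in jejunum, so the macrophage and mast cell counts lay near these shares.

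The squamous genes of the forestomach set the stomach pools apart from each other. Of 26 measured 17 were higher in stomach replicate 2 by over 1, with a median difference between the pools of 1.80. Krtdap, a secreted protein of keratinising cells, lay at 7.59 and 11.84 in the stomach pools and 6.92 and 6.88 in jejunum, Krt1, a keratin of upper layers, at 7.78 and 11.39 against 6.66 and 6.68, and Krt5, a keratin of the basal layer, at 7.07 and 9.58 against 6.81 and 6.81. The call of Krt1 (adjusted p = 0.0354) was lost without either jejunum array; its difference was 2.92 with both stomach pools, 1.11 without replicate 2 and 4.72 without replicate 1. Krt5 was not called with all 4 arrays. Krtdap was not called with this probe set, its brightest over the 4 arrays, but another, at 8.02 and 12.33 in stomach and 6.39 and 6.42 in jejunum, was called (adjusted p = 0.0257). With that probe set the difference was 3.78 with both stomach pools, 1.62 without replicate 2 and 5.93 without replicate 1. In replicate 1 these genes lay above the jejunum but nearer to it than in replicate 2. Krt10, another keratin, lay at 8.74 in replicate 1 and 11.75 in replicate 2, against 6.42 and 6.34 in jejunum. With both pools 7 of the 26 were called higher in stomach, 1 in jejunum and 18 were not called, and the list median was 1.33. Without replicate 2 the median was 0.25, with 11 higher in stomach and 3 in jejunum, and without replicate 1 it was 2.23, with 23 higher in stomach. The lone stomach pool is then assumed to vary like the jejunum pools. Without jejunum replicate 1 and replicate 2 the counts were 4 and 3. In treated rats the median gap of this list, stomach minus jejunum, was 0.81, 1.24, 1.60 and 2.69 at 1, 6, 24 and 72 h. Sbsn, a secreted protein of stratified epithelium, was high in both untreated stomach pools, at 10.16 and 10.81 against 6.47 and 6.66, and differed by 3.92 ± 0.189.

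**Figure D3:**
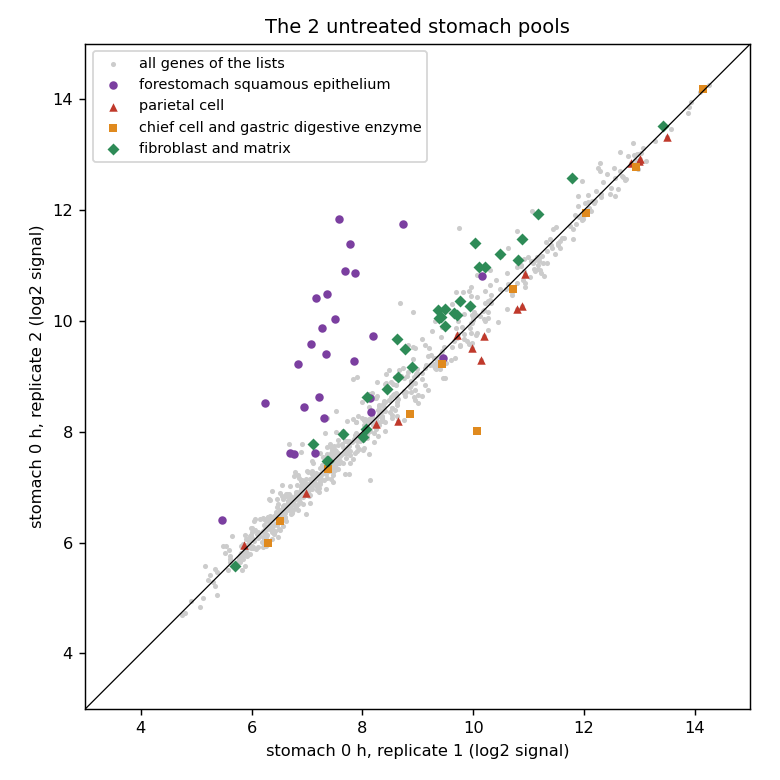
Log2 signal in stomach replicate 1 (x axis) against stomach replicate 2 (y axis) at 0 h for the genes of the lists, 1 point per gene, with squamous, parietal, chief and fibroblast genes in colour and a line of equal signal. Most squamous genes lie above the line (Krt1 at 7.78 and 11.39), while Pgc and Atp4a lie close to it.

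Beside the squamous signal, parietal and chief genes moved little between the pools, with median differences of -0.10 and -0.15 from replicate 1 to replicate 2, apart from Cym and Aqp4 (10.15 and 9.30). Of the 228 genes at least 4-fold higher in stomach 10 were higher in stomach replicate 2 by over 1 and 1 was higher in replicate 1, and 224 were called whichever array was left out. All 311 genes at least 4-fold higher in jejunum were called whichever array was left out.

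The untreated colon of the same rats placed these differences among 3 tissues. Of the 228 genes at least 4-fold higher in stomach the colon mean lay nearer the stomach in 81 (35.5%) and nearer the jejunum in 147. Of the 311 at least 4-fold higher in jejunum it lay nearer the jejunum in 129 (41.5%) and nearer the stomach in 182. With colon replicate 1 alone the shares were 37.7% and 40.5%, and with replicate 2 alone 35.1% and 42.1%. In 17 and 34 genes the colon lay above both other tissues. These are descriptions, with no test.

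The colon levels of the 311 jejunal genes were spread over the whole gap between the tissues. Cdh17, at 12.83 and 12.70 in colon, Mep1a at 12.29 and 12.08, Clca4 at 12.24 and 12.07, Zg16 at 12.02 and 12.18 and Cdx2 at 10.45 and 10.66 lay nearer their jejunum than their stomach levels. In contrast Alpi lay at 7.52 and 8.01 in colon, Creb3l3 at 7.20 and 7.72 and Slc51a at 8.68 and 8.84, nearer the stomach. For Si the colon pools were at 5.14 and 8.96, for Mttp at 5.86 and 8.16 and for Apoa4 at 6.66 and 8.71, so that replicate 2 alone lay clearly above the stomach. For the stomach genes Gkn1, Pgc and Pla2g1b colon replicate 1 was the higher, at 7.23, 8.45 and 7.83 against 5.83, 6.60 and 6.33. Among other stomach genes, Car2 was as high in colon, at 12.61 and 12.76, and Cldn8 higher, at 10.29 and 10.19 against 8.21 and 7.82 in stomach.

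**Figure D4:**
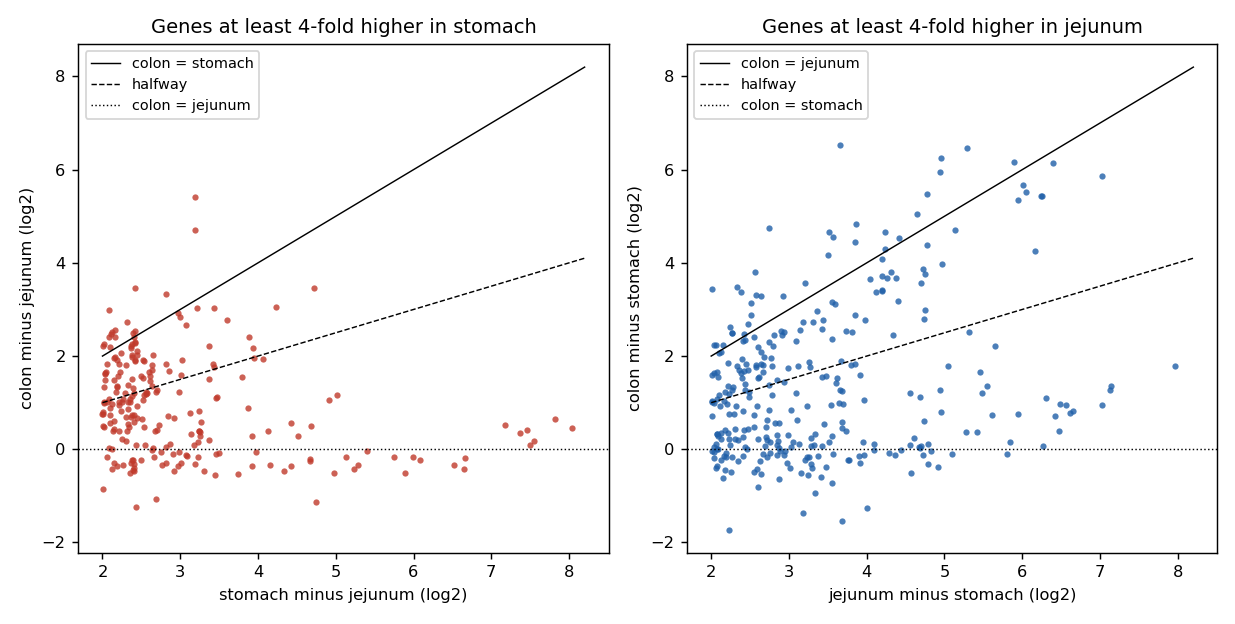
Untreated colon level against the tissue gap, 1 point per gene (means of 2 arrays, log2). Left, the 228 genes at least 4-fold higher in stomach, right, the 311 at least 4-fold higher in jejunum. The x axis is the gap between the tissues and the y axis the colon minus the lower tissue, with lines for a colon level equal to either tissue and for the midpoint. Genes lie along the lower as well as the upper line, with 35.5% above the midpoint on the left and 41.5% on the right.

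The same tissue difference was measured again on 16 arrays that the 0 h comparison did not use, from treated rats. There 15624 of 31042 probe sets (50.3%) were called. Of the 12186 called at 0 h, 9802 (80.4%) were called with the same sign and 24 with the opposite sign. Of the 718 called and at least 4-fold apart at 0 h, 717 were called with the same sign in treated rats, and 714 kept that sign at all 4 times. The gap of Gkn1 ran from 7.95 to 8.08 over the 4 times and that of Cblif from 5.81 to 5.88, close to their 0 h gaps. Other genes of both tissues ranged more widely. Tff2 ran from 5.25 to 7.15 and Hsd17b3 from 3.24 to 4.67 in favour of the stomach, against 6.52 and 5.24 at 0 h. Slc2a2 ran from 3.80 to 6.76 in favour of the jejunum and Cps1 from 3.38 to 6.59, against 6.65 and 6.61 at 0 h, while Si ran from 7.43 to 7.88 and RatNP-3b from 6.22 to 6.43.

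The treated stomach arrays also carried signal of other organs' genes. The median gap of the 20 pancreatic acinar genes, 0.17 at 0 h, was 0.03, 0.89, 0.34 and 3.96 at 1, 6, 24 and 72 h, and that of the 15 hepatocyte genes was 2.66 at 72 h. The part of this signal in the treated gaps was not tested. For Pla2g1b and Clps the treated gaps ran from 7.57 to 7.88 and from 7.23 to 7.37, against 7.81 and 7.37 at 0 h.

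**Figure D5:**
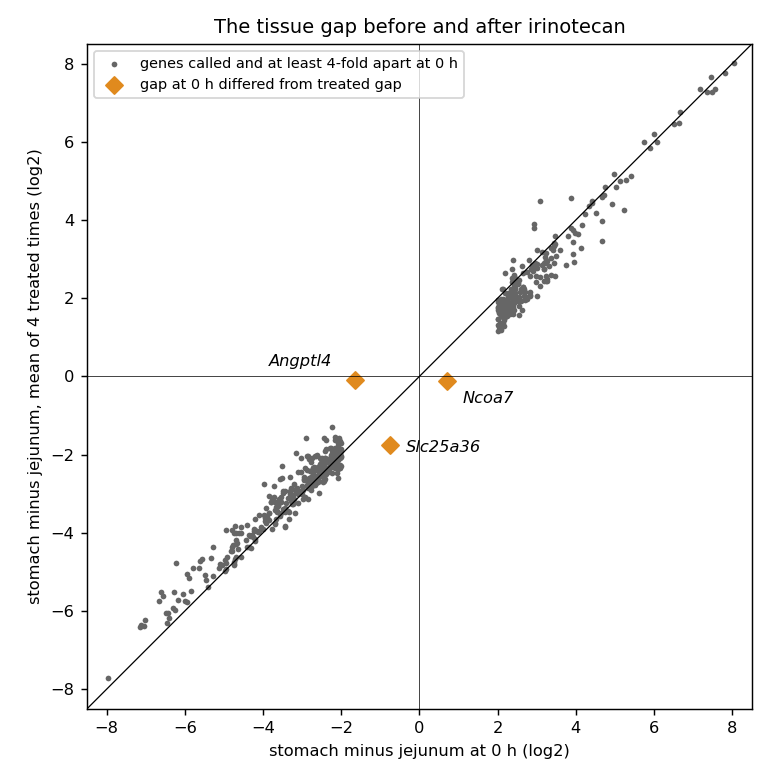
Gap between stomach and jejunum at 0 h (x axis) against the mean gap over the 4 treated times (y axis), in log2. Grey points are genes called and at least 4-fold apart at 0 h, 1 point per gene. Orange diamonds are the 3 genes whose gap passed the test of a difference. The line marks equal gaps. The grey points follow the line, while Angptl4 and Ncoa7 lie near 0 in treated rats and Slc25a36 lies further below 0.

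Whether the untreated gap differed from the treated one was tested in 1 limma fit of the 20 stomach and jejunum arrays, a test added after seeing the data. Of 31042 probe sets 3 passed (0.00966%). An unadjusted p under 0.05 was found for 4031 of the 31042, a share above 0.05. The gaps of probe sets that did not pass are therefore not shown to be unchanged. Angptl4, an inhibitor of lipoprotein lipase that fasting induces, lay at 8.98 and 8.56 in untreated jejunum and 7.09 and 7.17 in stomach. Its gap, stomach minus jejunum, was -1.64 at 0 h and -0.99, 0.51, 0.11 and -0.03 at 1, 6, 24 and 72 h. The other genes, Slc25a36, a mitochondrial nucleotide carrier, and Ncoa7, a coactivator of nuclear receptors, were singled out after their values were seen. The gap of Slc25a36 was -0.76 at 0 h and -0.98, -2.11, -2.04 and -1.91 later, and that of Ncoa7 was 0.70 at 0 h and 0.10, 0.05, 0.07 and -0.69 later.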

How the data were processed

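Per the submitters' processing notes the authors made the log2 values with RMA, and they were used as deposited, with no further scaling. The sources used here give neither the version of RMA nor which arrays it took in at once. The table holds 31099 probe sets, and its 57 controls were dropped. Of the rest 20826 carried 1 gene symbol, 436 several and 9780 none in the platform annotation, and only those with 1 symbol were named.

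Groups and replicates were taken from the sample titles. Stomach and jejunum at 0 h, 2 arrays each, were fitted with limma 3.58.1 under R 4.3.3 (lmFit and eBayes), two-sided, with Benjamini-Hochberg adjustment over 31042 probe sets and a threshold of 0.05. Each error is limma's standard error of the difference. The treated arrays were fitted with time as a factor. The fits were tested on simulated data. Tables and plots were made with Python 3.11.15.

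Named are the 20 genes furthest apart in each direction among called probe sets whose arrays did not overlap, and members of 42 lists (869 of 1051 entries measured, 845 genes), each by its brightest probe set. Lists were described by counts and medians, without a set test. The members and lists were chosen with earlier results of these data known. Alternatives were a filter on dim probe sets, quantile normalization, other variance models, more arrays in the fit, the replicate number as a block, each array or time omitted in turn, and testing against a difference of 1. Over the probe sets, the replicate 1 minus replicate 2 differences of stomach and of jejunum correlated at 0.041. That value cannot show whether the pools were paired, since differences found in 1 tissue only also lower it. The labels do not say that equal numbers hold the same rats, so the numbers were not taken to pair the pools.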

Additional observations from a re-analysis of the deposited data

Results flagged for a closer look

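The gap between stomach and jejunum at 0 h differed from the mean gap at the treated times for 3 probe sets in limma's fit of 20 arrays, by a test of that difference. For Angptl4 the 0 h gap minus the treated gap was -1.54 ± 0.144 (SE; adjusted p = 0.00175). For Slc25a36 it was 1.00 ± 0.131 (adjusted p = 0.0301), and for Ncoa7 0.82 ± 0.0965 (adjusted p = 0.0142). The 4 treated times were averaged here, and their gaps differ among each other as given above.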

How the results depend on the processing

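The count of 12186 probe sets called at 0 h was 8509 of 15521 tested with dim probe sets dropped, 11921 after quantile normalization, 12644 with a trend and robust variances, 11856 with the 6 untreated arrays and 9985 with all 30. Testing against a difference of 1 on the log2 scale left 1370, 651 higher in stomach and 719 in jejunum. Leaving out 1 array at a time gave 7940 to 11597, lowest without jejunum replicate 2. With the replicate number as a block the counts were 12416 at 0 h and 15561 in treated rats. The numbers are not known to pair the pools, and the correlation of 0.041 between same-numbered deviations does not settle it.

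In treated rats the count of 15624 was 10107 of 15521 tested with dim probe sets dropped, where fewer were tested, and 12463 to 15969 under the other alternatives. The 40 genes with the largest differences kept their direction and call in all 440 values under the alternatives. They were picked for those differences on the same arrays, so this is not independent support. Of 42 list medians 7 changed sign under an alternative, none of them among the 18 past 0.5. Of 294 list medians under alternatives 58 moved by more than the replicate spread, and of 588 list counts 538 stayed within 1.5 times.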
